A study of Danio rerio with 29 samples.

Results

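The comparison set whole brains of adult zebrafish homozygous for CCSER1_P471, a CRISPR/Cas-9 mutation of ccser1 (called M here), against whole brains of their wild-type relatives (WT). Its members were taken by column from the counts of whole brains, with every gene included: 4 M libraries and 3 WT libraries, 7 of the 29 libraries of the series. Of 32520 genes, 18733 had enough counts to be tested. The 4 brains of a second homozygous line, CCSER1_S48Y* (S), entered the same fit, and are cited where they show how far a value belongs to the M line. A separate set of 6 M and 6 WT bodies, the fish less their brains, is cited for the same genes. WT fish were siblings born to heterozygous parents, and the labels do not say to which line they were siblings. The sources used here give neither sex, clutch, age beyond adulthood nor the number of fish behind a library, and the p-values therefore measure how single libraries scatter, which may be technical. Each line carries 1 allele, and the effect of the allele and that of any other inherited difference between M and WT fish cannot be told apart.

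Ccser1 codes for a coiled-coil, serine-rich protein. The brain of a fish holds neurons, oligodendrocytes that wrap axons in lipid-rich myelin, radial glia that persist in adults, vessels and ependyma. On its roof lies the pineal organ, whose photoreceptors use much of the light-sensing cascade of the rods and cones of the eye and which makes melatonin at night. Neurons store neuropeptides and growth factors in secretory granules and switch on early genes when they fire. A library averages all these cells, so fewer cells of a type and less RNA per cell cannot be told apart in any value given here.

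Total counts ran from 7445865 to 9288679 in the 7 libraries, with 21814 to 22612 genes detected. Levels are counts scaled to the library total (CPM) with TMM factors, and differences are log2 values of M over WT with standard errors (SE). Each SE was derived from the test, as the absolute log2 value divided by the square root of its F statistic. A gene is called where its adjusted p is below 0.05 (edgeR quasi-likelihood test, Benjamini-Hochberg adjustment over all genes tested). The tissue label held against its markers. The pan-neuronal gene ELAVL3 stood at 571 to 661 CPM in M brains and at 514 to 523 CPM in WT brains, while 14 of 16 pituitary hormone genes lay below the filter on low counts. ELAVL3 was itself called higher in M brains (log2 0.24, adjusted p = 0.0152), a call lost without M brain 3 or WT brain 3. It was called higher in S than in WT brains too (log2 0.26, adjusted p = 0.012). Skin transcripts stood apart in 2 of the 7 libraries. The summed level of 28 epidermis genes was 189, 115, 134 and 867 CPM in M brains 1 to 4, against 673, 161 and 212 CPM in WT brains 1 to 3. The groups overlapped in that sum.

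The mutated gene itself overlapped between M and WT brains. Ccser1, listed as CCSER1, had 7.12, 7.12, 9.01 and 10.3 CPM in M brains, from 60, 67, 69 and 92 counts. It had 10.02, 10.8 and 7.38 CPM in WT brains, from 78, 84 and 63 counts. The log2 difference was -0.165 (SE 0.207, adjusted p = 0.666) in brains. In bodies it averaged 2.85 ± 0.753 CPM in M fish and 4.61 ± 1.21 CPM in WT fish (SD, n = 6 each; log2 -0.69, adjusted p = 0.0341). That call was lost without M body 2, 3 or 6 or WT body 1, 2 or 4. In brains the paralog CCSER2 differed by 0.03 (adjusted p = 0.8291), and ccser2b by 0.44 (SE 0.179, adjusted p = 0.133), with all M brains above all WT brains.

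In all, 1895 genes were called (10.1% of those tested), 923 higher (4.93%) and 972 lower (5.19%) in M brains. Most changes were small: the median absolute log2 difference of a called gene was 0.539, and 205 genes were at least 2-fold higher (1.09%) and 216 at least 2-fold lower (1.15%). All 4 M brains lay apart from all 3 WT brains for 4142 genes (22.1%), above them for 2080 and below them for 2062. The count rested on several libraries. Leaving out M brain 1 gave 1224 calls and leaving out M brain 3 gave 1075; leaving out WT brain 2 gave 1127 and leaving out WT brain 3 gave 1060, while 2590 were called when M brain 4 was left out. A test against a minimum change of 2-fold called 91 genes, 62 higher and 29 lower.

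**Figure D1:**
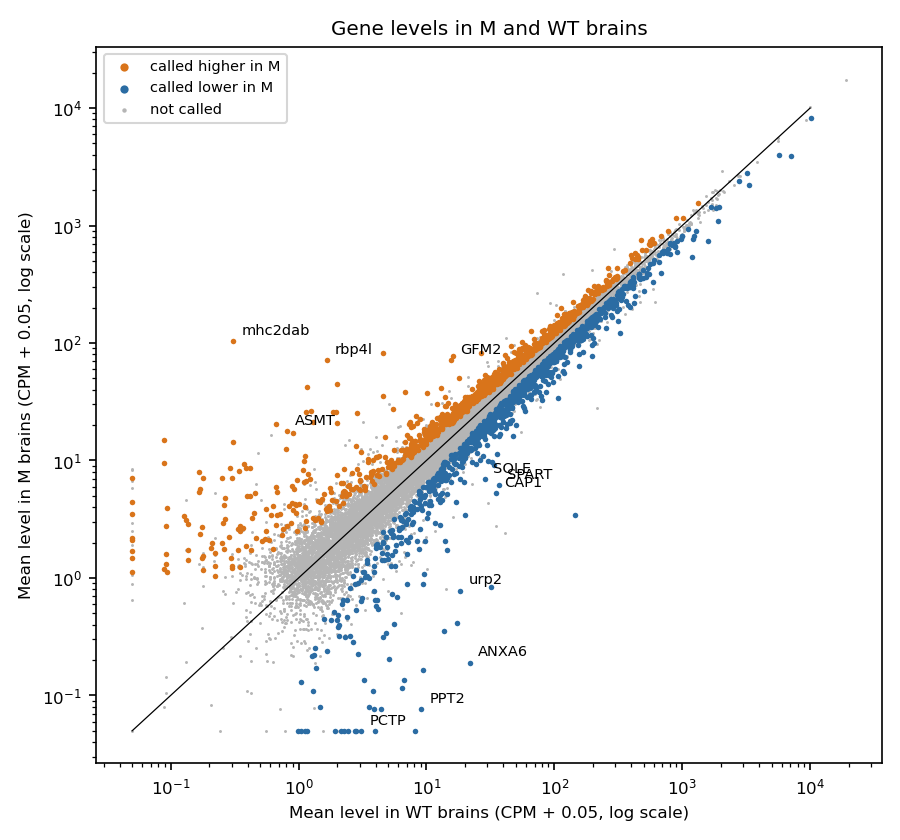
Mean level of each tested gene in M brains (vertical axis) against WT brains (horizontal axis), in CPM with 0.05 added, both axes logarithmic; orange points were called higher, blue points called lower, grey points not called, and the diagonal marks equal levels. The genes furthest from the diagonal fall in a higher set led by mhc2dab and photoreceptor genes and a lower set led by ANXA6 and PPT2.

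Genes of the light-sensing cascade were among the strongest differences in M brains, where they rose many-fold, and their levels in S brains were also far above those of WT brains. The rod transducin gene GNAT1 had 20.4, 18.7, 36.6 and 27.3 CPM in M brains and 0.899, 0.257 and 2.11 CPM in WT brains (log2 4.51, adjusted p = 0.000641). GNG11, listed under the name of a G-protein gamma subunit, had 21.7, 14.2, 27.3 and 18.9 CPM in M brains and 0.642, 0.386 and 0.820 CPM in WT brains (log2 5.01, SE 0.318, adjusted p = 1.41e-06). The cone transducin GNAT2, the cone phosphodiesterase subunits PDE6C and PDE6H, and the guanylate cyclase gucy2d, which restores the cascade's messenger cGMP, rose by 1.58, 4.04, 4.26 and 2.75. Regulators of the cascade rose with them: the arrestins saga (4.52) and ARR3 (3.81), and the recoverins RCVRN (5.21) and rcvrnb (3.39). So did guca1aa, a calcium sensor of the cyclase (4.72). The complexin gene CPLX4, which works at the ribbon synapses of photoreceptors, was 44.3 times its WT level from 190 and 3 counts (95% counting interval 14.9 to 217). Genes of retinoid handling were also higher, among them rbp3 (3.75), the retinol dehydrogenase rdh5 (4.63), rbp4l (5.45) and RPE65, the isomerase of the visual cycle (2.35, SE 0.346, adjusted p = 0.0033). RPE65 was lower in M than in S brains, by a log2 value of -1.22 (adjusted p = 0.0191), a call lost without M brain 1, M brain 3 or S brain 4. None of the other genes of this paragraph was called between M and S brains.

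Of 36 rod genes matched, 23 passed the filter on low counts and 16 were called higher; of 29 cone genes, 17 passed and 11 were called higher. A gene low in WT can pass that filter through its M or S libraries, so these counts are not shares of the lists. Cone genes were not all higher: guca1g fell by 2.73 (adjusted p = 0.0345), and the thyroid receptor THRB, which is not limited to cones, fell by 0.27 (adjusted p = 0.048), and neither was called without M brain 1, M brain 3, WT brain 2 or WT brain 3. Of 26 tested genes from the rest of the retina and eye, 2 were called higher, RPE65 and rlbp1b, and 3 lower, among them the calcium-binding cabp5b, at 4.39, 5.21, 6.53 and 6.25 CPM in M brains against 12.5, 10.8 and 10.9 CPM in WT brains (log2 -1.02, adjusted p = 0.0033). Over all genes 4.93% were called higher and 5.19% lower. Cabp5b and rlbp1b were called in S against WT brains too (log2 -0.91, adjusted p = 0.00663, and 1.40, adjusted p = 0.00393). Neither was called between M and S brains. The lens crystallin CRYAB, also a small heat shock protein, fell by 1.37.

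Some genes of the pineal organ were higher too. Aanat2, the penultimate enzyme of melatonin synthesis, had 7.36, 9.46, 15.4 and 6.81 CPM in M brains, against 1.28, 1.03 and 0.820 CPM in WT brains (log2 3.21, SE 0.359, adjusted p = 0.000108). The last enzyme of that pathway, ASMT, had 17.8, 11.6, 23.5 and 17.5 CPM in M brains and 0.899, 0.901 and 0.469 CPM in WT brains (log2 4.52, adjusted p = 0.000166). Parapinopsinb, of a family of pineal opsins, was at 1.66, 2.66, 3.004 and 4.24 CPM in M brains and at 0.128, 0.257 and 0.234 CPM in WT brains (log2 3.71, adjusted p = 0.00271). M brain 3 was the highest of the M brains for aanat2 and ASMT, as for GNAT1. The photoreceptor and pineal regulator crx gave 183 counts over the M brains and 3 over the WT brains, 42.7 times higher in M (95% counting interval 14.4 to 209). S brains averaged 7.52, 19.9, 3.69 and 7.50 CPM of aanat2, ASMT, parapinopsinb and crx. Each was called higher in S than in WT brains, and none was called between M and S brains. Of 30 pineal genes matched, 23 passed the filter on low counts, and of these 6 were called higher and none lower. As with rod and cone genes, a gene low in WT can pass that filter through its M or S libraries. The count is therefore not a share of the list. Others of the list were tested and not called, such as asmt2, at 6.41 to 8.50 CPM in M brains and 7.34 to 14.3 CPM in WT brains (adjusted p = 0.234), and the early pineal factor bsx (log2 1.09, adjusted p = 0.109).

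**Figure D2:**
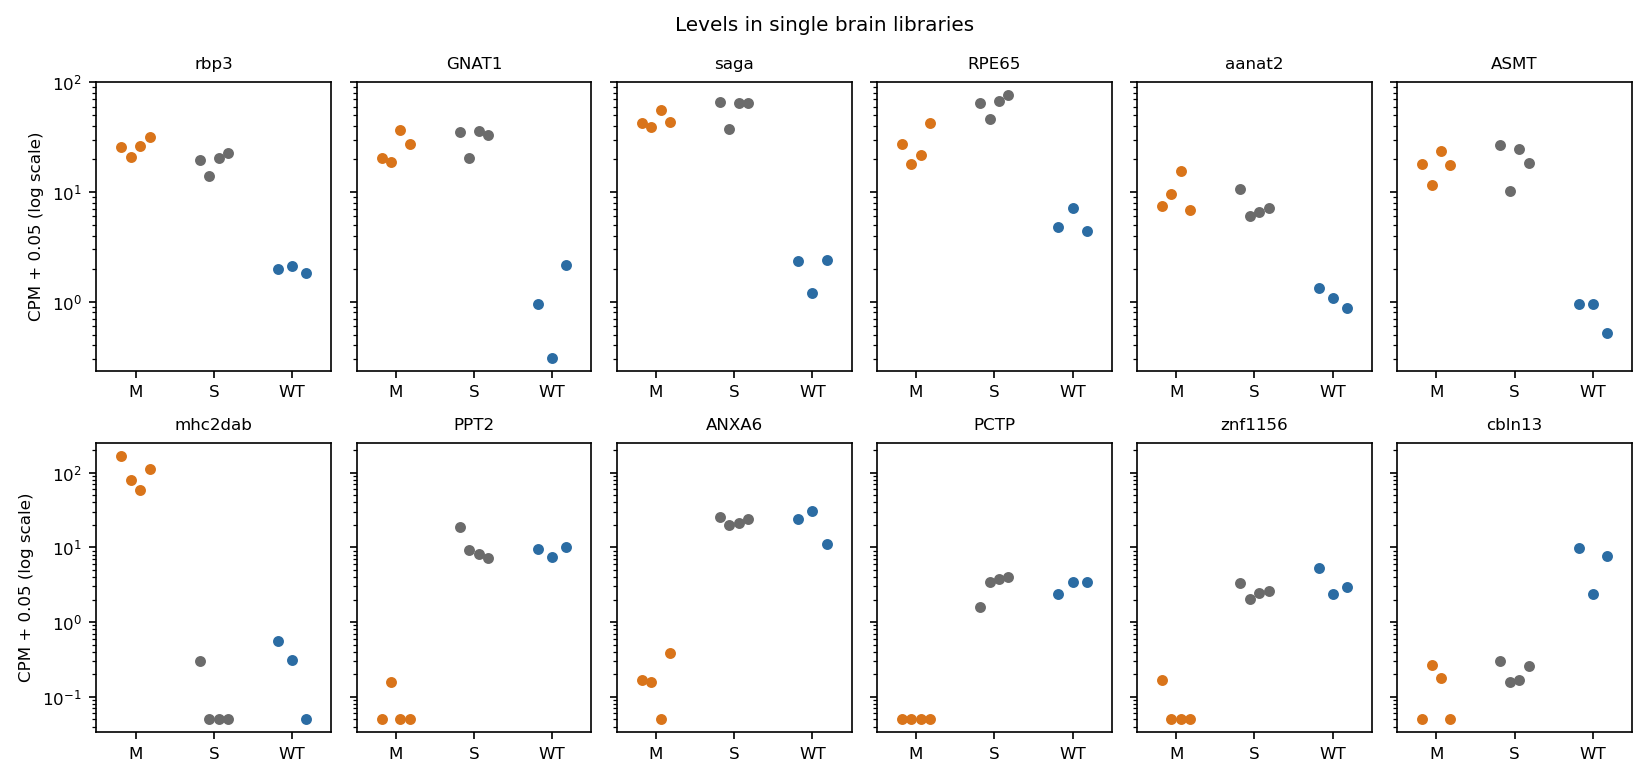
Level in every brain library, in CPM with 0.05 added on a logarithmic axis, of 6 genes of photoreceptors and the pineal organ (top) and 6 genes near absence in a group (bottom); each point is 1 library, M brains left, S brains in the middle, WT brains right. In the top row M and S brains lie above WT brains, with RPE65 lower on average in M than in S brains. In the bottom row M brains stand apart from both S and WT brains for mhc2dab, PPT2, ANXA6, PCTP and znf1156, while cbln13 is low in M and S brains.

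A second set of genes was near absence in M brains and had levels in S brains near those of WT. PPT2, which codes for a lysosomal thioesterase, gave 1 count over the 4 M brains and 219 over the 3 WT brains, 313 times lower in M (95% counting interval 55.6 to 12400). A second gene listed as PPT2 was not called, at 46.4 ± 0.890 CPM in M brains (SD, n = 4) and 48.1 ± 4.46 CPM in WT brains (n = 3; log2 -0.05, adjusted p = 0.766). Its neighbour in name ppt2a.3 had 0, 0.213, 0.131 and 0.112 CPM in M brains, against 7.96, 10.9 and 9.26 CPM in WT brains (log2 -6.17, SE 0.464, adjusted p = 5.36e-06). S brains averaged 10.8 ± 5.36 CPM of PPT2 and 9.65 ± 3.97 CPM of ppt2a.3 (SD, n = 4). ANXA6, a calcium-dependent membrane-binding annexin, had 0.119, 0.106, 0 and 0.335 CPM in M brains, against 24.1, 30.2 and 11.1 CPM in WT brains (log2 -7.10, SE 0.479, adjusted p = 7.71e-06). The phosphatidylcholine carrier PCTP gave no count in any M brain and 73 over the WT brains, at least 34.8-fold lower taking 3 counts in the M group as the floor. The zinc finger gene znf1156 gave 1 and 84 counts, 120 times lower (21.0 to 4800). A smaller gap was seen in SPART, whose human orthologue is mutated in a hereditary spastic paraplegia, and which fell to 6.53, 5.21, 3.66 and 9.04 CPM in M brains, against 38.9, 46.1 and 24.7 CPM in WT brains (log2 -2.57, SE 0.309, adjusted p = 0.000836), with 24.4 ± 6.70 CPM in S brains (SD, n = 4). PPT2, ppt2a.3, ANXA6, PCTP, znf1156 and SPART were called lower in M than in S brains too.

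The opposite was seen in a gene of antigen presentation. The MHC class II chain gene mhc2dab had 166, 79.3, 59.2 and 113 CPM in M brains, against 0.514, 0.257 and 0 CPM in WT brains (log2 8.63, SE 0.677, adjusted p = 0.000166). S brains averaged 0.0633 ± 0.127 CPM (SD, n = 4). A class II gene of another name, mhc2dhb, gave no count in M brains and 46 in WT brains, at least 21.9-fold lower taking 3 counts in the M group as the floor. The class I gene mhc1zka had 4.15, 6.16 and 7.05 CPM in M brains 1 to 3 and 0 in M brain 4, where it lay with the WT brains, all at 0. MHC genes have many near copies, and the sources used here do not say how reads that fit several of them were counted, so the level of any 1 of them is uncertain. The peptide-loading gene tapbp.1 rose by 1.05 (SE 0.220, adjusted p = 0.00895), with M above WT brains and above S brains (log2 1.22, adjusted p = 0.00207). With mhc1zka, it made 2 called higher of 26 tested class I and immunoproteasome genes (1 without any 1 of M brains 1 to 3 or the WT brains, 3 without M brain 4). Over all genes 4.93% were called higher. Mhc1zka, at 0 in WT brains, passed the filter on low counts through its M libraries, so the count is not a share of the list. The call of mhc1zka was lost without any 1 of the WT or S brains, and the gene did not pass the filter on low counts without any 1 of M brains 1 to 3. The viral RNA sensor IFIH1 rose by 2.86 (adjusted p = 0.00234), while the interferon-induced RSAD2 fell by 0.92 (adjusted p = 0.0322), a call lost without M brain 1, M brain 3 or WT brain 2. Of 29 tested interferon response genes 1 was called higher and 1 lower (6.9% called, against 10.1% of all genes). Of 26 microglia and macrophage genes 1 was called (3.85%, against 10.1% of all genes), AIF1L, at -0.23, and it was not called without any 1 of the 7 libraries.

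Several genes near absence in M brains were near absent in M bodies as well. Cbln13, low in M and S brains, was not, and averaged 9.89 ± 2.33 CPM in M bodies and 8.38 ± 1.31 CPM in WT bodies (SD, n = 6 each; log2 0.24, adjusted p = 0.312). M and WT bodies differed widely, with 6696 of 20240 genes called between them (33.1%). The main axis of variation among the body libraries held 70.9% of the variance of the most variable genes. On it WT bodies lay at 46.0 to 103 and M bodies at -64.3 to -17.2, without overlap. What that axis reflects, and its part in the body values given here, was not tested. ANXA6 averaged 0.129 ± 0.117 CPM in M bodies and 78.7 ± 22.1 CPM in WT bodies (SD, n = 6 each; log2 -9.11, adjusted p = 2.1e-12). Mhc2dab averaged 88.5 ± 37.2 CPM in M bodies and 0.0313 ± 0.0485 CPM in WT bodies (log2 11.01, adjusted p = 1.07e-09). SPART stood at 0.149 ± 0.210 CPM in M bodies and 22.3 ± 4.27 CPM in WT bodies (log2 -7.13), further down than in brains. Znf1156 gave no count in any M body and 1.40 to 7.16 CPM in WT bodies. PPT2 (-8.16), ppt2a.3 (-4.65), PCTP (-6.39) and mhc2dhb (-3.57) were called lower there as well. Over all genes called in M brains, 1738 were tested in bodies, of which 378 (21.7%) were called with the same sign and 160 (9.21%) with the opposite sign, and 33.2% of the 15455 genes not called in brains were called in bodies. Of 193 genes that were called and at least 4-fold different in brains, only 93 were tested in bodies. Among those 93, 35 were called with the same sign and 5 with the opposite sign.

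**Figure D3:**
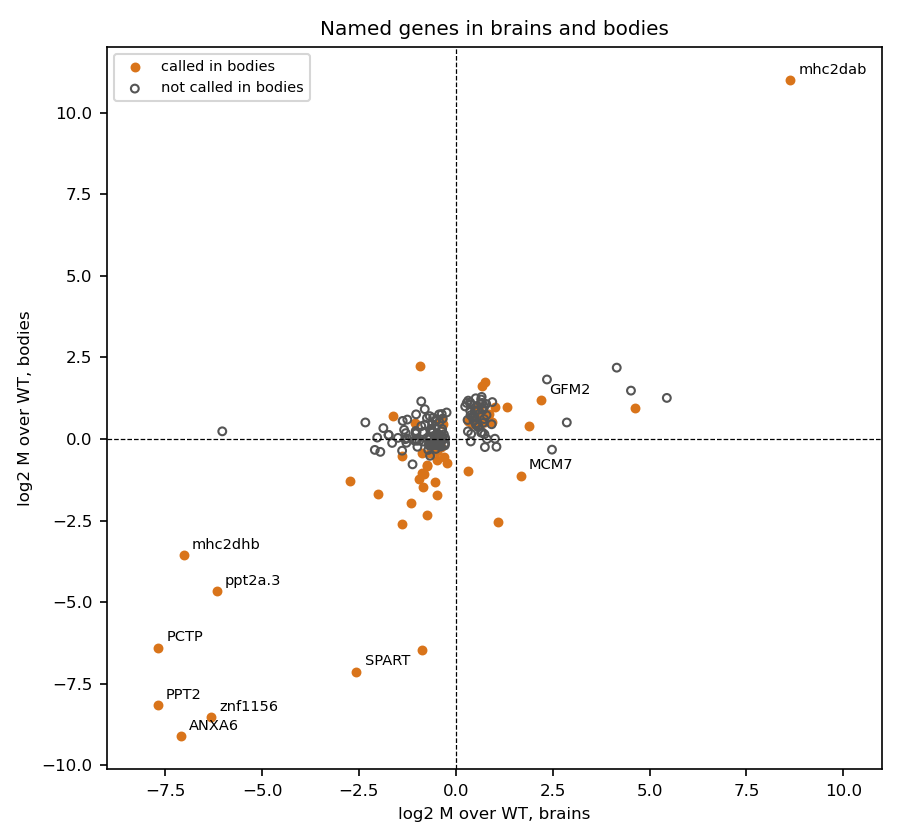
Log2 difference of M over WT in bodies (vertical axis) against that in brains (horizontal axis) for the genes named by rule that were called in M brains and tested in bodies; filled points were also called in bodies, open points were not, and the dashed lines mark no difference. ANXA6, PPT2, znf1156, SPART, PCTP and mhc2dab lie far out in the same direction in both tissues, and MCM7 lies above 0 in brains and below 0 in bodies.

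Some genes rose by moderate amounts, and M brains were above S brains for them as well. GFM2, a mitochondrial elongation factor, had 73.7, 78.0, 66.0 and 67.9 CPM in M brains, against 15.5, 16.1 and 15.2 CPM in WT brains (log2 2.19, SE 0.108, adjusted p = 7.48e-08). It was 1.19 higher in M bodies (adjusted p = 6.67e-05). WDR81, a regulator of endosomes, had 91.7, 91.7, 99.1 and 90.8 CPM in M brains and 50.7, 47.5 and 39.6 CPM in WT brains (log2 1.02, adjusted p = 3.2e-05), with 0.98 in bodies. The relaxin receptor RXFP1 had 28.7, 31.9, 28.3 and 31.3 CPM in M brains and 10.5, 13.5 and 12.3 CPM in WT brains (log2 1.31, adjusted p = 3.28e-05), with 0.997 in bodies. The replication helicase subunit MCM7 had 29.2, 52.1, 51.5 and 32.6 CPM in M brains and 16.1, 10.4 and 12.3 CPM in WT brains (log2 1.68, adjusted p = 0.000665), yet was 1.12 lower on the log2 scale in M bodies. Its M brains fell into a higher and a lower pair, all above the WT brains. Of 62 tested division genes, MCM7 was the 1 called higher, and 2 were lower, the replication clamp PCNA (-0.53) and the midzone protein PRC1 (-1.38). The share called in that list was 4.84%, against 10.1% of all genes. The apoptosis-linked splicing regulator RBM5 rose by 0.74, and by 1.03 over S brains.

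Genes that carry the same symbol moved apart in 3 of 1363 shared symbols. The clearest was ACADSB, a mitochondrial dehydrogenase that breaks down branched-chain fuels. One of its genes had 83.4, 87.4, 69.0 and 76.4 CPM in M brains and 40.2, 38.7 and 44.7 CPM in WT brains (log2 0.94, SE 0.0966, adjusted p = 6.02e-05). The other had 15.5, 20.8, 23.4 and 23.9 CPM in M brains and 42.4, 40.3 and 53.3 CPM in WT brains (log2 -1.12, SE 0.146, adjusted p = 0.000412). Their sum was 99.9 ± 6.51 CPM in M brains (SD, n = 4) and 86.5 ± 10.1 CPM in WT brains (n = 3). The sum of the GOLGA7B genes was 106.4 ± 12.21 CPM in M brains and 116.9 ± 1.56 CPM in WT brains, and that of the SIK2 genes was 138.4 ± 15.9 CPM in M brains and 206.8 ± 15.11 CPM in WT brains. Whether reads passed between such copies was not tested. More widely, 17 symbols named here had another tested gene that was not called, so a value given by symbol belongs to 1 gene only. The most abundant of these by CPM were SNCG, whose second gene stood at 734 ± 29.7 CPM in M brains and 821.6 ± 104 CPM in WT brains (SD, n = 4 and 3; log2 -0.16, adjusted p = 0.184), and IQSEC2, at 465 ± 37 CPM in M brains and 373 ± 44.9 CPM in WT brains (log2 0.32, adjusted p = 0.0531). The further genes listed as RPE65 differed by 0.03 and 0.42 on the log2 scale (adjusted p = 0.942 and 0.324). Those of KIF5B, DCLK1, DYRK1A and IGF1R differed by -0.07, 0.07, 0.03 and -0.0001, and none of them was called. For 4 symbols the further gene was itself called: BSN (log2 0.37), PFKL (0.43), RCVRN (3.66) and STMN1 (-0.56).

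Several secreted signals of neurons were lower in M brains. UCN, the stress peptide urocortin, had 47.6, 43.7, 48.7 and 48.0 CPM in M brains, against 81.03, 81.5 and 91.8 CPM in WT brains (log2 -0.85, SE 0.0829, adjusted p = 3.55e-05). BDNF, the neurotrophin that supports synapses, had 63.4, 49.6, 53.4 and 54.4 CPM in M brains and 95.7, 98.1 and 94.8 CPM in WT brains (log2 -0.80, SE 0.0836, adjusted p = 6.45e-05). Vgf, a granule protein and peptide precursor, had 201, 182, 181 and 178 CPM in M brains and 278, 352 and 303 CPM in WT brains (log2 -0.74, adjusted p = 0.000144). In all of these every M brain lay below every WT brain. UCN and BDNF were also lower in M than in S brains (log2 -0.53, adjusted p = 0.000919, and -0.41, adjusted p = 0.00517), and vgf was not called there (log2 -0.18, adjusted p = 0.185). UCN, BDNF and vgf were each called lower in S than in WT brains too (log2 -0.32, -0.39 and -0.57, adjusted p = 0.0236, 0.00944 and 0.00124).

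Of 27 tested neurotrophin and receptor genes, the list that holds BDNF and vgf, 2 were higher and 3 lower (18.5% called, against 10.1% of all genes). Of 61 tested neuropeptide and granule genes, 12 were called lower and none higher (19.7% called, against 10.1% of all genes). Without WT brain 2, 7 were lower. The median log2 difference of that list was -0.234, against 0.00764 over all genes. Its summed level was 6068, 6040, 5976 and 6019 CPM in M brains, against 7143, 6989 and 7177 CPM in WT brains, groups that did not overlap. S brains lay between them, at 6334 to 6690 CPM, also below every WT brain. The vasoactive peptide gene edn1 was at 3.44, 5.95, 4.83 and 3.46 CPM in M brains and at 17.0, 16.7 and 17.7 CPM in WT brains (log2 -1.95, SE 0.263, adjusted p = 0.000673). Urp2, a urotensin-related peptide made by neurons that touch the cerebrospinal fluid, had 1.42, 0.638, 0.522 and 0.335 CPM in M brains and 27.6, 6.95 and 20.6 CPM in WT brains (log2 -4.63, SE 0.588, adjusted p = 0.0015). The granule genes chga (-0.53), scg2b (-0.33) and SCG3 (-0.28), chosen after their values were seen, were called lower as well. Cbln13, of a family of secreted synapse organizers, gave 3 and 160 counts, 76.3 times lower (95% counting interval 25.6 to 374), and was near absent in S brains too, at 0.173 CPM. Syt13, a synaptotagmin of secretory cells, fell by 0.66 (adjusted p = 0.000166). It was lower in S than in WT brains as well (log2 -0.61, adjusted p = 0.000403), and was not called between M and S brains (adjusted p = 0.683).

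Of 63 tested early and activity-linked genes, 8 were called lower and 2 higher (15.9% called, against 10.1% of all genes). These counts depended on the libraries: none was higher without M brain 1, M brain 3, WT brain 2 or WT brain 3, 1 was higher without M brain 2 or WT brain 1, 13 were higher and 12 lower without M brain 4, and 12 were higher and 13 lower without the 3 brains richest in skin transcripts. The summed level of the list ran from 3510 to 4678 CPM in M brains and from 4418 to 5017 CPM in WT brains, groups that overlapped. Cremb and crema, repressors of cAMP-driven transcription, fell by 1.49 and 0.94 (adjusted p = 0.000371 and 0.00312), and the early nuclear receptor NR4A3 had 25.6, 20.1, 19.1 and 20.8 CPM in M brains and 38.0, 40.7 and 40.3 CPM in WT brains (log2 -0.89, adjusted p = 0.000715). The constitutively active receptor gpr3, which raises cAMP, fell by 0.89 (adjusted p = 2.38e-05), and the neurite-promoting NRN1 by 0.51. Gpr3 was also called lower in S than in WT brains (log2 -0.37, adjusted p = 0.0118), and lower in M than in S brains (log2 -0.52, adjusted p = 0.00092). In monoamine synthesis, QDPR, which regenerates the shared cofactor tetrahydrobiopterin, had 19.9, 23.2, 28.3 and 23.8 CPM in M brains and 42.3, 35.0 and 42.8 CPM in WT brains (log2 -0.75, adjusted p = 0.00287), and was 0.82 lower on the log2 scale in M bodies. TPH2, of serotonin synthesis, rose by 0.68 (adjusted p = 0.0107) and is also a pineal gene. TPH2 was higher in S than in WT brains as well (log2 0.50, adjusted p = 0.0429). TH, of dopamine synthesis, was at -0.79 (adjusted p = 0.0094), a call lost when the 3 brains richest in skin transcripts were left out.

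Of 20 tested stress axis and glucocorticoid genes 3 were called lower and none higher (15.0% called, against 10.1% of all genes, and 5 lower without M brain 4). Their summed level was 1367 to 2824 CPM in M brains and 2311 to 2417 CPM in WT brains. M brains differed widely among themselves in some of them and in clock genes. FKBP5, a chaperone that glucocorticoids induce strongly, had 238, 53.5, 47.9 and 824 CPM in M brains 1 to 4, against 625, 610 and 532 CPM in WT brains, so that M brains 1 to 3 lay below and M brain 4 above every WT brain (adjusted p = 0.521). KLF9, another such target, ran the same way, at 62.3, 8.50, 13.5 and 154 CPM in M brains and 129, 100 and 89.2 CPM in WT brains (adjusted p = 0.583). Both were chosen after their values were seen. M brain 4 was also the M brain with the most skin transcripts, and a part of that in these values was not tested. Of 49 clock genes 3 were called higher and 6 lower with all libraries (18.4% called, against 10.1% of all genes). Without M brain 4, 2 were higher and 23 lower, and without WT brain 3 the counts were 1 and 3. The summed level of the list was 7214, 6143, 6780 and 9677 CPM in M brains, against 8912, 9051 and 9312 CPM in WT brains. CLOCK rose in every M brain, at 19.5, 16.3, 18.8 and 15.2 CPM against 9.12, 9.27 and 10.3 CPM in WT brains (log2 0.86, SE 0.153, adjusted p = 0.00332). A more abundant second gene listed as CLOCK was not called. It averaged 35.8 CPM in M brains and 30.0 CPM in WT brains (log2 0.25, adjusted p = 0.183). The cryptochromes cry3a and cry3b fell by 0.52 and 0.70, and the clock-output repressor BHLHE40 by 0.42, each with all M brains below all WT brains. The sources used here do not give the hour of collection.

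Among genes that make membrane lipids, calls in M brains were nearly all lower. Of 30 cholesterol synthesis genes 13 were called lower and none higher (8 without WT brain 2), with a median of -0.58. SQLE, which opens the committed part of the pathway, had 4.39, 6.38, 7.18 and 9.82 CPM in M brains, against 29.7, 33.1 and 22.5 CPM in WT brains (log2 -2.03, SE 0.244, adjusted p = 0.000393). Of 32 fatty acid genes 7 were lower and none higher (12 without M brain 4), and elongases led them: ELOVL7 had 7.83, 9.99, 6.01 and 13.4 CPM in M brains and 19.1, 25.4 and 28.4 CPM in WT brains (log2 -1.38, adjusted p = 0.00188), ELOVL1 fell by 0.84 and ELOVL2, which builds very long polyunsaturated chains, by 0.63. ACSL4, which activates such chains, had 133, 118, 144 and 147 CPM in M brains and 224, 219 and 212 CPM in WT brains (log2 -0.69, adjusted p = 8.96e-05). Of 32 sphingolipid and galactolipid genes 5 were lower and 1 higher. The shares called in the cholesterol, fatty acid and sphingolipid lists were 43.3%, 21.9% and 18.8%, against 10.1% of all genes. FA2H, which hydroxylates the fatty acids of myelin lipids, UGT8, which adds galactose to ceramide, GAL3ST1, which adds the sulfate of sulfatide, and SPTLC2, of the first step of ceramide synthesis, fell by 1.04, 0.68, 1.26 and 0.64. All the lipid genes named here were also called lower in M than in S brains. In bodies ELOVL7 was at -0.52 (adjusted p = 0.0279), a call lost without M body 4 or 5 or WT body 1 or 4, and none of the others was called.

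Of 22 tested myelin genes, 12 were lower and none higher, with a median of -0.68. The share called in this list was 54.5%, against 10.1% of all genes. The summed level of the whole list was 6001, 6639, 5646 and 8742 CPM in M brains, against 9427, 15297 and 11655 CPM in WT brains, so M brain 4 came nearest to WT brain 1. Cldnk, the claudin of fish myelin, had 80.8, 81.7, 64.8 and 84.8 CPM in M brains and 142, 259 and 190 CPM in WT brains (log2 -1.33, SE 0.164, adjusted p = 0.000922). S brain libraries summed to between 9702 and 11012 CPM. Among 28 radial glia genes 1 was higher and 5 lower (3 lower without M brain 1 or WT brain 1). In that list 21.4% were called, against 10.1% of all genes. Among the lower was S100B, at 672, 753, 726 and 908 CPM in M brains and 1259, 1340 and 1033 CPM in WT brains (log2 -0.66, adjusted p = 0.00218). S100B was also called lower in S than in WT brains (log2 -0.36, adjusted p = 0.0462), and not between M and S brains. At the blood-brain barrier, MFSD2A, which carries omega-3 lipids into the brain, had 57.2, 35.1, 49.4 and 69.0 CPM in M brains and 105, 109 and 105 CPM in WT brains (log2 -1.01, SE 0.166, adjusted p = 0.00399). The endothelial factors sox18 and klf2a fell by 1.04 and 0.84, and with MFSD2A they were the 3 called lower of 39 vessel genes (7.69%, against 5.19% of all genes; 5 without M brain 4). NOTCH3, a receptor of vessel-wall cells, was the 1 called higher (0.41, adjusted p = 0.0158), a call lost without WT brain 1 or WT brain 2. Both klf2a and NOTCH3 also differed between S and WT brains (log2 -0.91, adjusted p = 0.00594, and 0.35, adjusted p = 0.0336). Neither was called between M and S brains. Of 34 genes of ependyma and motile cilia 5 were called lower (14.7%, against 5.19% of all genes), and 1 to 3 without any 1 of the 7 libraries other than M brain 4.

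**Figure D4:**
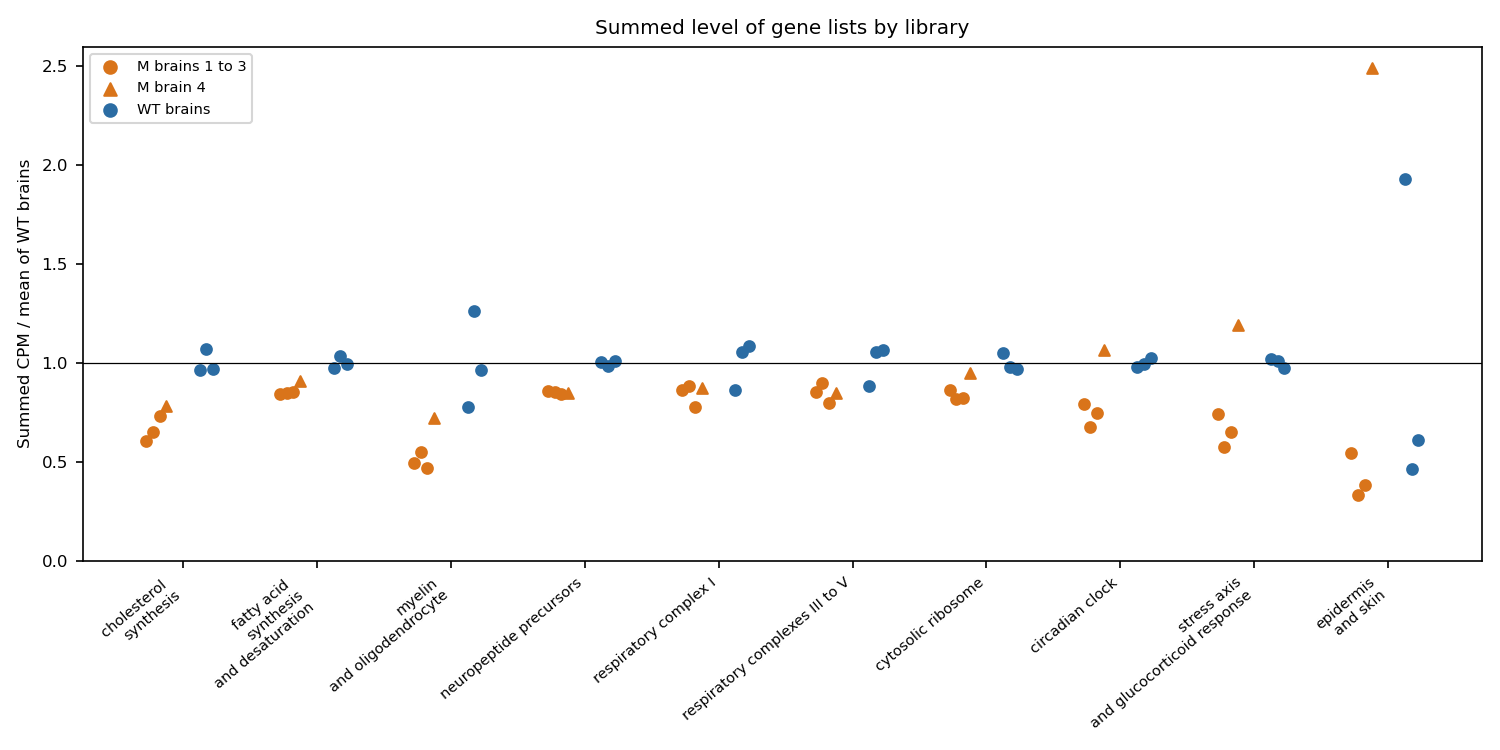
Summed level of 10 gene lists in each library divided by the mean sum of the WT brains, as a ratio on a linear axis; points are single libraries, M brains left of WT brains in each pair. Sums of cholesterol synthesis, neuropeptides, fatty acid synthesis and myelin in the M brains lie below all WT brains, and M brain 4, marked as a triangle, stands apart in the clock and epidermis lists.

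Among genes of energy and protein supply, lower calls outnumbered higher ones in the lists of respiratory complexes and cytosolic ribosomes, and most members of each list did not pass. Of 50 genes of respiratory complexes III to V 19 were lower and none higher, and of 40 of complex I 11 and none. Those shares were 38.0% and 27.5%, against 10.1% of all genes called. S brains were low in these lists as well. Their sums of 6668 to 7230 CPM for complexes III to V and 2902 to 3247 CPM for complex I lay below every WT brain. Of 47 pyruvate and citric acid cycle genes 4 were lower and none higher, of 32 beta oxidation genes 1 and 2, and of 50 proteasome genes 3 and none. The shares called in those lists, 8.51%, 9.38% and 6.0%, did not exceed the 10.1% of all genes. The counts for complexes III to V and complex I moved with single libraries: they were 7 and 4 without WT brain 3, 8 and 4 without WT brain 2, 10 and 5 without M brain 3, and 30 and 20 without WT brain 1, whose sums (7910 and 3319 CPM) lay among those of the M brains (7147 to 8070 and 2999 to 3405 CPM) and below the other WT brains. The ATP synthase subunit atp5mj had 88.6, 91.5, 80.3 and 86.7 CPM in M brains and 121, 135 and 139 CPM in WT brains (log2 -0.60, adjusted p = 0.000836), and cytochrome c, cycsb, fell by 0.68. In glycolysis 5 of 45 were higher and 8 lower (4 lower without M brain 1, WT brain 2 or WT brain 3, 13 without WT brain 1): the phosphofructokinase PFKL rose by 0.65 and LDHA, of lactate formation, fell by 0.38. With all libraries 28.9% of the glycolysis list were called, against 10.1% of all genes. The lactate exporter SLC16A3 had 46.9, 56.6, 43.5 and 47.1 CPM in M brains and 87.5, 78.3 and 78.3 CPM in WT brains (log2 -0.74, adjusted p = 0.000268). It was lower in M bodies too (-2.33, adjusted p = 0.00015).

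Of 83 cytosolic ribosome genes 22 were lower and none higher, with a median of -0.233, but this count was between 5 and 10 without any 1 of the 7 libraries other than M brain 4, and 47 without M brain 4. With all libraries 26.5% of the ribosome list were called, against 10.1% of all genes. RPL38 had 94.7, 93.0, 92.1 and 107 CPM in M brains and 139, 129 and 134 CPM in WT brains (log2 -0.47, adjusted p = 0.00291). The elongation factor EEF1B2 fell by 0.49. Of 86 mitochondrial translation genes 1 was higher and 1 lower, MRPS7, at 18.3, 19.8, 17.0 and 17.3 CPM in M brains and 29.8, 33.1 and 36.2 CPM in WT brains (log2 -0.87, adjusted p = 0.000204). The share called in that list was 2.33%, below the 10.1% of all genes. Of 82 chaperone and unfolded-protein genes 16 were lower and 3 higher (lower calls numbered 3 without WT brain 2, 5 and 10 when M brain 3 or M brain 1 was left out, and 8 when WT brain 3 was). In the endoplasmic reticulum the chaperone HSPA5 and the stress regulator XBP1 fell by 0.48 and 0.51, and in mitochondria HSPE1 by 0.67, whereas hsf1, the master factor of the heat shock response, rose by 0.60, with all M brains above all WT brains. Of 60 antioxidant and glutathione genes 12 were lower and 1 higher (7 lower without WT brain 2). The shares called in the chaperone and antioxidant lists were 23.2% and 21.7%, against 10.1% of all genes. Gpx3 had 11.7, 13.2, 12.9 and 15.4 CPM in M brains and 28.5, 23.7 and 20.9 CPM in WT brains (log2 -0.87, adjusted p = 0.00107) and was 1.04 lower on the log2 scale in M bodies. Among 40 genes of alcohol and aldehyde metabolism 5 were lower and 1 higher (15.0% called, against 10.1% of all genes). The cytochromes cyp2p7 and cyp2ad2 fell by 2.33 and 2.09 and the aldehyde dehydrogenase ALDH3A2 by 1.39.

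The cytoskeleton of neurites showed both directions. Among 90 tubulin and microtubule-associated genes, 13 were called lower and 5 higher (2 higher without M brain 1, 2 or 3 or WT brain 2). STMN1, which frees tubulin from microtubules, had 1455, 1290, 1406 and 1594 CPM in M brains and 1974, 1916 and 1915 CPM in WT brains (log2 -0.43, adjusted p = 0.00152), and tubb5 and the doublecortin-like kinase DCLK1 fell by 0.49 and 0.59. Map1sb had 58.3, 56.3, 57.3 and 58.5 CPM in M brains and 128, 138 and 86.0 CPM in WT brains (log2 -1.02, adjusted p = 0.000445). CAP1, which turns over actin, had 6.17, 6.16, 4.31 and 4.35 CPM in M brains and 25.4, 36.2 and 43.6 CPM in WT brains (log2 -2.73, SE 0.229, adjusted p = 9.29e-06), and S brains were as low, at 6.13 ± 1.61 CPM (SD, n = 4). The synuclein gene SNCG, of peripheral and sensory neurons in mammals, fell by 1.29. Neurofilament genes, which fill large axons, were called lower as well, with nefla at -0.76, nefmb at -0.86 and NEFL at -0.85, chosen after their values were seen. They belong to the 23 tested neuron genes, of which 2 were higher and 7 lower (2 lower without M brain 3, 3 without M brain 1, M brain 2 or WT brain 2). With all libraries 39.1% of the neuron list were called, against 10.1% of all genes. The kinesins KIF5B, a carrier along axons, and KIF22, of mitotic chromosomes, went opposite ways, at 0.31 and -1.16.

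In several lists of synapses, channels, guidance and chromatin, higher calls outnumbered lower ones; the lists of transmitter receptors lay nearer the shares over all genes. Of 109 synaptic vesicle genes 23 were higher and 9 lower, with 17 to 21 higher when any 1 of the 7 libraries was left out, and 4 lower without WT brain 3 or 5 without WT brain 2. The presynaptic scaffold BSN had 559, 569, 663 and 543 CPM in M brains, against 435, 402 and 443 CPM in WT brains (log2 0.45, SE 0.0718, adjusted p = 0.00173). Of 116 postsynaptic and adhesion genes 15 were higher and 1 lower (6 higher without WT brain 3, 7 or 8 when M brain 3 or 1 was left out, 24 when M brain 4 was). IQSEC2, which regulates receptor traffic at excitatory synapses, had 165, 162, 177 and 153 CPM in M brains and 122, 115 and 105 CPM in WT brains (log2 0.52, adjusted p = 0.000605), and ptprsa, a receptor phosphatase of synapse adhesion, rose by 0.58. Of 78 glutamate receptor and transport genes 4 were higher (5.13%, against 4.93% of all genes), among them GRIA1 (0.51) and grin2db (0.73), and none was lower (2 higher without M brain 2 or 3, 7 without WT brain 1, 11 without M brain 4). Of 49 GABA and glycine genes 2 were higher and 3 lower (10.2% called, against 10.1% of all genes). Of 26 acetylcholine genes none was called by edgeR (6 had an unadjusted p below 0.05, and DESeq2 called 1, lower). Calcium and sodium channels had 8 higher and 1 lower of 69 (1 higher without WT brain 3, 5 without M brain 3), among them CACNA1C, of L-type calcium channels (0.46). Axon guidance had 13 higher and 2 lower of 114 (5 higher without WT brain 3, 7 without M brain 3). The shares called in the synaptic vesicle, postsynaptic, channel and guidance lists were 29.4%, 13.8%, 13.0% and 13.2%, against 10.1% of all genes. By summed level, S brains lay above every WT brain for guidance (6112 to 6472 against 5457 to 5662 CPM). They did so for calcium and sodium channels (5076 to 5625 against 4293 to 4611 CPM) and postsynaptic genes (15600 to 17250 against 14836 to 15208 CPM). For synaptic vesicle genes S brains overlapped WT brains (25150 to 26741 against 25024 to 27427 CPM). NRCAM, an adhesion protein of axons, and DCC, the netrin receptor, rose by 0.62 and 0.94.

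Of 110 chromatin and histone genes 21 were higher and 4 lower (10 higher without M brain 3, 12 without WT brain 3, 13 without WT brain 2). With all libraries 22.7% of the chromatin list were called, against 10.1% of all genes. Kmt2a, a histone H3 methyltransferase, had 372, 385, 395 and 372 CPM in M brains and 270, 267 and 269 CPM in WT brains (log2 0.50, SE 0.0551, adjusted p = 8.96e-05), and was 0.53 higher in M bodies (adjusted p = 0.00514). It was also called higher in S than in WT brains (log2 0.38, adjusted p = 0.001), and was not called between M and S brains (adjusted p = 0.121). DYRK1A, a kinase whose loss impairs human brain growth, rose by 0.63. These stand on a wider list of 159 orthologues of neurodevelopmental disorder genes, of which 29 were higher and 1 lower (11 higher without WT brain 3, 17 without M brain 3). The share called in the disorder list was 18.9%, against 10.1% of all genes. The sum of that list was 24001 to 26245 CPM in S brains, above every WT brain (22367 to 23234 CPM). The chromatin sum was above every WT brain in S brains too (11049 to 11615 against 10397 to 10697 CPM). Of 59 insulin, IGF and growth genes 7 were higher and 1 lower (2 higher without WT brain 3, 3 without M brain 1, 2 or 3 or WT brain 2, and 6 lower without M brain 4). In that list 13.6% were called, against 10.1% of all genes. The insulin-like growth factor receptor IGF1R had 47.5, 47.5, 50.7 and 48.2 CPM in M brains and 35.2, 26.4 and 24.5 CPM in WT brains (log2 0.76, adjusted p = 0.000991), and the insulin-inhibited factor FOXO4 rose by 0.76; both were higher in M bodies. In the FGF pathway the feedback inhibitor SPRY4 and the target factor etv5b fell by 1.06 and 0.50, among 9 lower and 1 higher of 95 genes of TGF-beta, BMP and FGF signalling. The share called in that list, 10.5%, was near the 10.1% of all genes.

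Differences also followed the length of genes. For 13241 tested genes whose symbol matched 1 gene of the RefSeq table of assembly GRCz12tu (88.9% of the tested genes with a symbol of their own), span was taken as the length of the gene with its introns. Genes were split by span into 5 groups of like size. In the group of shortest span, of median 4.64 kb, 9.06% of genes were called lower and 1.55% higher, with a median log2 difference of -0.125. In the group of longest span, of median 97.5 kb, 2.49% were called lower and 8.31% higher, with a median of 0.0825, and the groups between lay in order. Every M brain showed it: against the WT mean, the shortest group had medians of -0.0979, -0.0891, -0.184 and -0.0949 in M brains 1 to 4, and of -0.00757, -0.0121 and 0.0151 in WT brains. S brains showed the same order, with -0.173 and 0.13 in the shortest and longest groups. The rank correlation of span with log2 difference was 0.203 over these genes, which share libraries and are not independent, and is given as a description. The part of span in the counts of the lists was not tested.

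Around ccser1 itself, on chromosome 8 of that assembly, 9 of the 100 nearest tested genes were called (9.0%, against 10.3% of all placed genes), and 3 of them by at least 2-fold: GNAT2 of the cones (1.58), ghra, a growth hormone receptor (1.01, adjusted p = 0.048), whose call was lost without any 1 of the 7 libraries, and mhc2dhb. Shares of called genes per chromosome ran from 6.59% on chromosome 17 to 15.0% on chromosome 19.

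**Figure D5:**
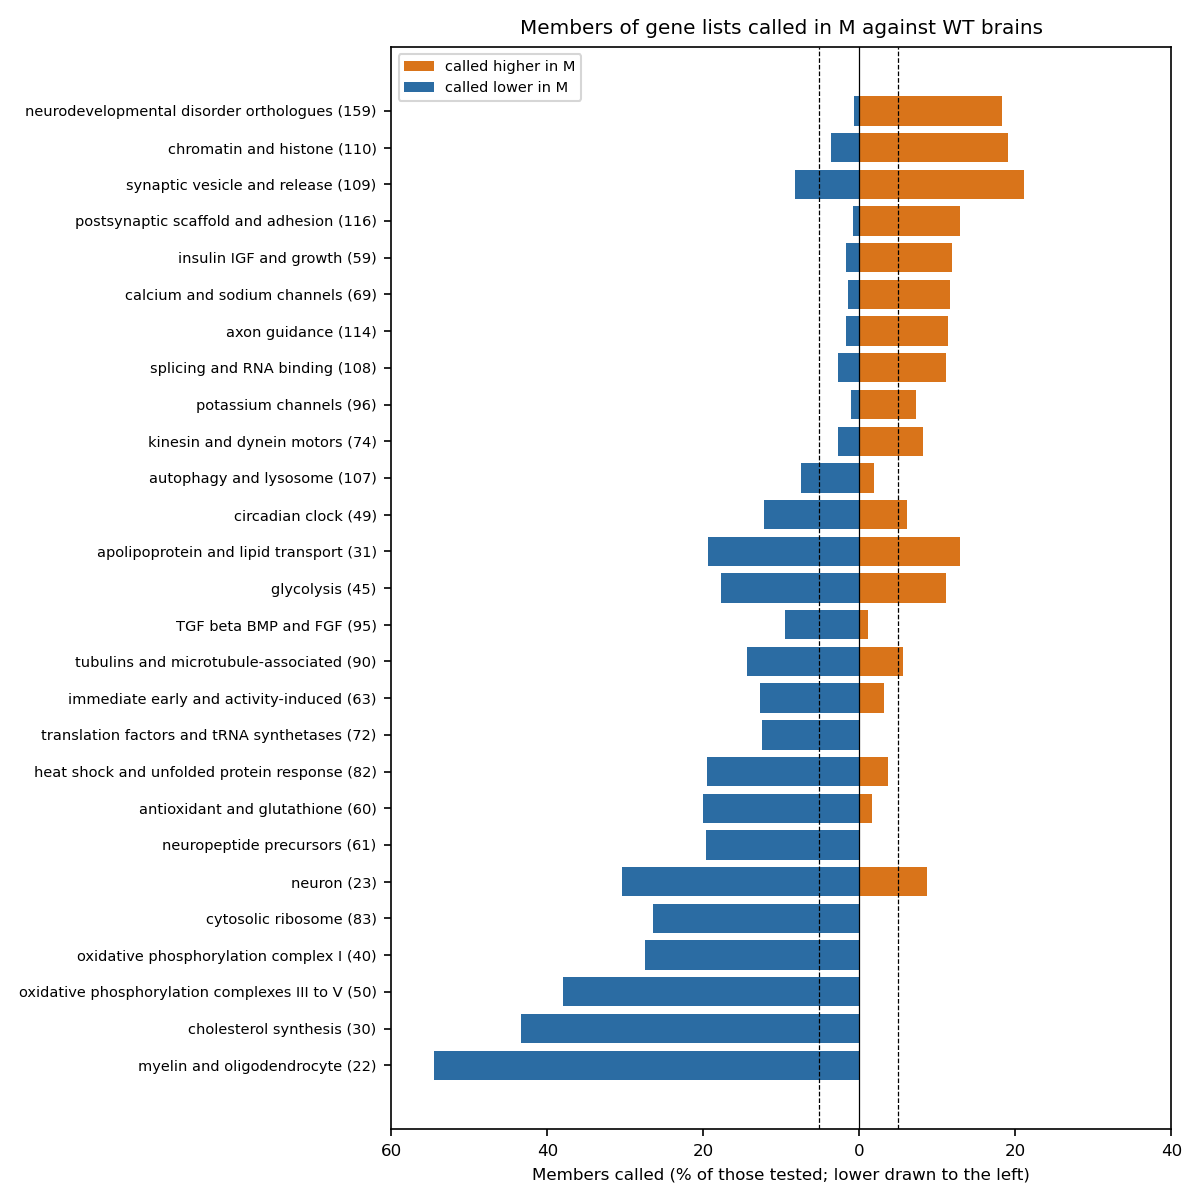
Share of the tested members called higher (orange, right) and lower (blue, left) in M brains for the 27 gene lists with at least 8 calls, photoreceptor lists left out, in percent, with the number tested beside each name; dashed lines mark the shares over all genes tested, 4.93% higher and 5.19% lower. Cholesterol, myelin, respiratory and peptide lists extend to the left, and synaptic, channel, chromatin and neurodevelopmental lists to the right.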

How the data were processed

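Whole-brain libraries of 4 M and 3 WT samples were compared, with 4 S brains in the same fit. Libraries were polyadenylated RNA read as 150 bp pairs, per the labels' protocols. The authors deposited raw counts per gene, made with STAR and builds GRCz11 and GRCz10, per the submitters' processing notes; counting program, annotation, strand setting and treatment of multiply mapped reads: not given in the sources used here.

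Counts were tested with edgeR 4.0.16 (TMM, filterByExpr, robust quasi-likelihood F test, Benjamini-Hochberg adjustment, threshold 0.05) in R 4.3.3; DESeq2 1.42.0 was an alternative. Bodies (18 libraries, totals 9450422 to 11674882) were fitted separately. Tested on simulated data of 18733 genes, the M against WT contrast recovered 62% of 2-fold and 78% of 4-fold changes. Counting intervals are exact, at 95%, and cover counting error only. Floors set 3 counts in the group without counts and take the counts of the other group as they are. Replicates differed beyond sampling noise (chi-square per gene of 4.496 or more over 9 pairs). Symbols came from a supplied name table (29201 IDs named), gene spans and neighbours from RefSeq.

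Named genes were ccser1 and its paralogs, the 20 called genes of smallest adjusted p in each direction, and called genes near ccser1. Up to 4 members of each of 69 lists were added. So were the 10 largest folds in each direction among called genes with a mean of 10 CPM or more in the higher group. For these folds only genes whose M and WT libraries did not overlap were taken. Genes with only a clone name or accession were passed over for p-values and folds. The members and lists were chosen with earlier results of these data known. Alternatives were other normalizations, filters, fits and leaving out each library.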

Additional observations from a re-analysis of the deposited data

Results flagged for a closer look

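Of 142 groups of libraries compared by Dixon's test, 10 held a library far from the others, where chance flags about 1 in 20 groups; each value below is the gap to the nearest library divided by the range of the group. Among the 4 M brains, the epidermis sum (0.902) and UGT8 (0.918) stood apart in M brain 4, which was the highest in both. PCNA (0.911) was also highest in M brain 4, at 43.2 CPM against 37.0 to 37.5 CPM in the other M brains. WDR81 (0.884) was highest in M brain 3 and grin2db (0.871) lowest in M brain 2. Cremb (0.845) was highest in M brain 2 and ccser2b had a value of 0.849. PPT2 and znf1156 (1 each) were flagged for 1 count in 1 of the M brains and none in the others, and mhc2dab (1) for a trace in 1 of the S brains.

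BHLHE40 moved in opposite directions in bodies and brains. It ran from 254 to 331 CPM in M bodies and from 148 to 242 CPM in WT bodies (log2 0.57), while its log2 difference in brains was -0.42. The difference between the tissues was not tested.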

How the results depend on the processing

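The 1895 genes called (923 higher, 972 lower) stayed within 1.5 times under DESeq2, RLE factors, other filters and a fit that was not robust. A test against a 2-fold minimum, which asks for larger changes, called 91 (62 higher, 29 lower), and a fit of the M and WT brains alone called 1186 (548 higher, 638 lower). Leaving out 1 library gave 1060 to 2590 calls, 500 to 1233 higher and 545 to 1357 lower. Among 293 named genes, 97 were called between M and S brains and 75 between M and WT bodies; the 2-fold minimum left 15 and 15. Leaving out the 3 brains richest in skin transcripts, chosen after seeing the data, gave 2538 calls (1116 higher, 1422 lower). Like-numbered M and WT brains deviated together weakly (correlations 0.0358 to 0.0958 over 3 pairs), and like-numbered pairs with an S brain ran from -0.252 to 0.125. So few pairs cannot show whether like numbers mark a shared batch. With the replicate block 1544 genes were called (736 higher, 808 lower). Depth limits genes near the filter, where few counts carry a value.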
